A study of Homo sapiens with 6 samples.

Results

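The genes of the cytosolic ribosomal proteins were followed in AGS cells, an established human gastric adenocarcinoma line, after an inhibitor of the microRNA miR-25-3p was given. The inhibitor group (3 arrays) received the anti-miR oligonucleotide, and the control group (3 arrays) received a non-targeting control RNA. Cells of both groups were transfected with a lipid reagent, given the same RNA again 24 h later, and harvested for total RNA 48 h from the start. From 500 ng of it, labelled cDNA was hybridised to whole-transcript Affymetrix arrays. The labels name each group's 3 samples biological replicates without saying whether they came from separate cultures, so p-values measure only the spread between these samples.

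Members were taken by symbol from the platform annotation: RPL or RPS followed by a digit, RPLP0, RPLP1, RPLP2 and RPSA, without the ribosomal S6 kinases, and only from probe sets that name 1 gene. This gave 106 of 18656 measured genes, read by 450 of 224320 single-gene probe sets. They comprised 43 of the 46 large subunit genes listed and 26 of the 31 small subunit genes listed, 8 paralogues, 26 likely pseudogenes and the pair of Y-linked RPS4 genes, whose levels are not given. RPS19BP1, which encodes a binding partner of RPS19 and no ribosomal protein, was also caught by the naming rule. Pseudogenes were marked by a P number in the symbol or by a RefSeq pseudogene entry. A gene value is the mean log2 expression of the gene's probe sets on 1 array, so a difference of 1 is a doubling of the signal.

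The cytosolic ribosome is built of a large and a small subunit, each an RNA core with many small, mostly basic proteins. Its proteins are needed in equal numbers, their messages are among the most abundant in growing cells, and most begin with an oligopyrimidine tract through which their translation follows growth signals. Ribosomal protein genes have many processed pseudogene copies and some expressed paralogues, and probes can read several of them. MicroRNAs lower messages that match their seed, the bases at positions 2 to 8. The microRNA that was inhibited is shown first because it defines the treatment. Its mature sequence, from RefSeq at chr7:100093571-100093592 on the minus strand of GRCh38.p14, has the seed in capitals.
hsa-miR-25-3p: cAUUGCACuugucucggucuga

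The start sites of 9 subunit genes are shown because the tract at the start of the message is the feature that these genes are known to share. Each window holds 20 bases before and 10 bases from the RefSeq start on GRCh38.p14, read along the gene, with the longest unbroken run of C and T in capitals. The windows lie at chr4:39458913-39458942 (RPL9), chr1:6199586-6199615 (RPL22), chrX:101390991-101391020 (RPL36A), chr11:809947-809976 (RPLP2), chr12:56116613-56116642 (RPL41), chr3:40457319-40457348 (RPL14), chr2:3575240-3575269 (RPS7), chr1:153990742-153990771 (RPS27) and chr9:19380227-19380256 (RPS6), with RPL9, RPL22 and RPS6 on the minus strand and the others on the plus strand.
RPL9: tacaagtacgtaatgacgacagacgTTCTT
RPL22: ctgcgtagttcgctcaCCTCCCTTTCTaac
RPL36A: ttccgtttgcctcgcggTTTCTTTCTTTCC
RPLP2: gcctcttgcgtcggcgCCTTCCTTTTCCTC
RPL41: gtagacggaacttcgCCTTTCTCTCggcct
RPL14: gggttgggcgggTCTTCTTCCTTCTCgcct
RPS7: ttccggtttccgCCCTCCTCCTCgcgctgt
RPS27: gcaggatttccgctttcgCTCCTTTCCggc
RPS6: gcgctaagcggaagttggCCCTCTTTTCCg
The run crosses the start site in all windows but that of RPL9, whose annotated first base is A. Of the 69 subunit genes, 59 matched the promoter table. The first transcribed base was C at any annotated start of 46 of these (78%), against 18% of all 27305 symbols in the table. The letters CTTTCC stood on the sense strand between 10 bases before and 15 bases after a start in 17 of the 59 (28.8%), against 1.65% of all symbols. The letters TTCCGG, the core that ETS factors bind, stood on either strand of the 300-base promoter in 32 (54.2%), against 20.1%. A match of letters is a description and no binding site.

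The table holds 2-decimal log2 values with array medians between 6.02 and 6.07, and with 3 arrays in each group the precision is limited. Of the 6 epithelial markers, EPCAM, KRT8, KRT18, KRT19 and CLDN4 had group means from 8.51 to 12.03, while KRT7 was dim at 5.80 in inhibitor and 5.98 in control arrays. The measured markers of leukocytes, fibroblasts and endothelium had group means from 2.28 to 4.89, except the collagen gene COL1A1 with 6.37 in inhibitor and 6.39 in control arrays. Across genes, control replicate 1 correlated with the other arrays at 0.9915 on average, the lowest of the 6, and the others at 0.9933 to 0.9938. Inhibitor and control arrays were compared with limma, and the threshold was a Benjamini-Hochberg adjusted p of 0.05 over all genes.

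No ribosomal protein gene passed the threshold, as no gene of the 18656 did (0% called). The members tended to slightly higher values in inhibitor arrays, with 67 of 106 above 0 (63.2%) and a median log2 difference of 0.047, against 50.5% and 0.0021 over all genes. The 1866 brightest genes lay between, with 55.9% above 0 and a median of 0.016. A mean level under 6 was found for 9872 of all genes, but for 27 members and only 3 of the 69 subunit genes. These 69 had 60.9% above 0 and a median of 0.043. At an unadjusted p under 0.05, a level that 6.12% of all genes reached in either direction, 9 members were higher (8.49%, against 2.95% of all genes) and 2 lower (1.89%, against 3.16%). All inhibitor arrays lay above all control arrays for 14 members (13.2%, against 5.19% of all genes) and below them for 2 (1.89%, against 7.68%). Among the 1866 brightest genes, 7.88% lay above and 9.86% below without overlap. At an unadjusted p under 0.05 by limma, 1.77% of these bright genes were higher and 1.71% lower. The differences were small: the members ranged from -0.29 to 0.53, the middle part of them from -0.04 to 0.11 (lower to upper quartile), and the smallest adjusted p was 0.79. Members share probes and regulation, so these counts are no independent replicates of the treatment.

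Among the large subunit's 43 genes, 28 had a positive difference (65.1%), with a median of 0.056, and 5 were higher (11.6%, against 2.95% of all genes) and 1 lower (2.33%, against 3.16%) at an unadjusted p under 0.05. The arrays did not overlap for 9 higher genes (20.9%, against 5.19% of all genes and 7.88% of the 1866 brightest). They did not overlap for 1 lower gene (2.33%, against 7.68% and 9.86%). Of the 26 small subunit genes, 14 had a positive difference (53.8%), with a median of 0.022. At an unadjusted p under 0.05 by limma, 0 were higher (against 2.95% of all genes) and 0 lower (against 3.16%). Without overlap, 2 were higher (7.69%, near the 5.19% of all genes) and 0 lower (against 7.68%). The small subunit median changed sign with the median of probe sets (-0.0092), with each gene's brightest row alone (-0.012), without the dimmest 30% of probe sets (-0.0028), without inhibitor replicate 2 (-0.0054) and without control replicate 3 (-0.022). The large subunit median kept its sign under these settings and was lowest at 0.017 with the brightest probe sets. A difference between the subunits was not tested.

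**Figure D1:**
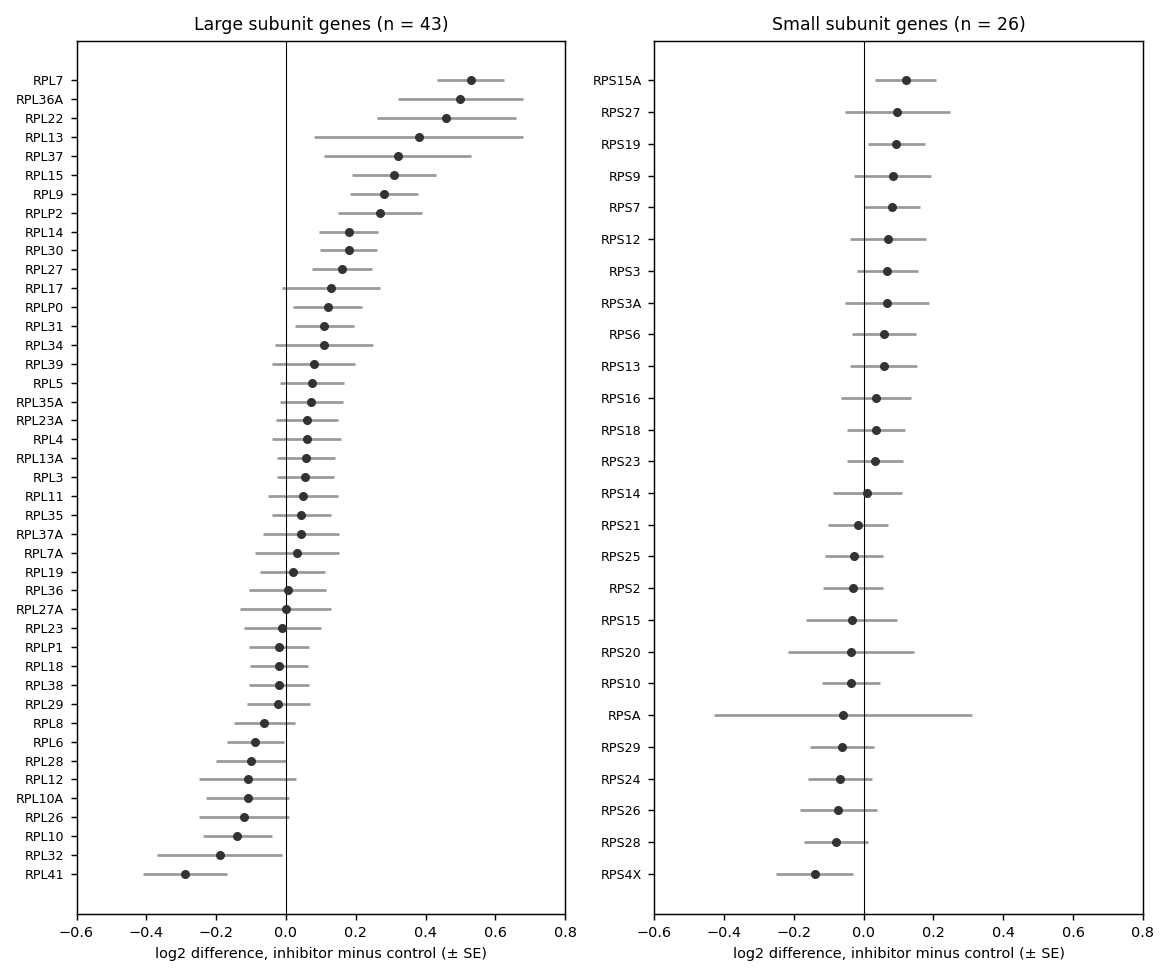
Log2 difference of inhibitor minus control for each measured large subunit gene (left, n = 43) and small subunit gene (right, n = 26), with bars of 1 standard error from limma. The large subunit genes run from -0.29 (RPL41) to 0.53 (RPL7) and the small subunit genes from -0.14 (RPS4X) to 0.12 (RPS15A).

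RPL7, a large subunit protein with many processed copies, had the smallest p of the members. Its gene value was 6.95, 6.85 and 7.10 in inhibitor arrays, against 6.40, 6.50 and 6.42 in control arrays. All inhibitor arrays were above all control arrays, and the difference of 0.53 (SE 0.096, 1.44-fold) had an unadjusted p of 0.00043 and an adjusted p of 0.79 in limma. Its 4 probe sets held 3 distinct rows of values, since a pair was identical on all 6 arrays. The brightest distinct row read 8.49, 8.33 and 8.61 in inhibitor arrays, against 7.71, 7.95 and 8.02 in control arrays. The next read 6.66, 6.62 and 6.66 in inhibitor arrays, against 6.42, 6.07 and 5.94 in control arrays. The dimmest read 4.17, 4.13 and 4.51 in inhibitor arrays, against 3.75, 4.03 and 3.69 in control arrays. The groups did not overlap on any of these rows, with differences of 0.45 to 0.58, and the gene's difference was 0.51 with the repeated row counted once and 0.46 to 0.59 without any 1 array.

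RPL9, another large subunit protein, also had a positive difference on every probe set. Its gene value was 8.29, 8.39 and 8.27 in inhibitor arrays, against 8.16, 8.05 and 7.91 in control arrays. The groups did not overlap, and the difference was 0.28 (SE 0.097, unadjusted p = 0.0201, adjusted p = 0.79 in limma). It had 10 probe sets with 7 distinct rows, all positive, from 0.13 to 0.43, and counting repeats once gave 0.25. The row present 3 times read 9.86, 9.86 and 10.03 in inhibitor arrays, against 9.59, 9.41 and 9.46 in control arrays. RPL30, which lay at 11.23, 11.25 and 11.28 in inhibitor arrays, against 11.03, 11.12 and 11.06 in control arrays, had all 4 probe sets positive and a difference of 0.18 (SE 0.082, adjusted p = 0.79 in limma), and was singled out after its values were seen.

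**Figure D2:**
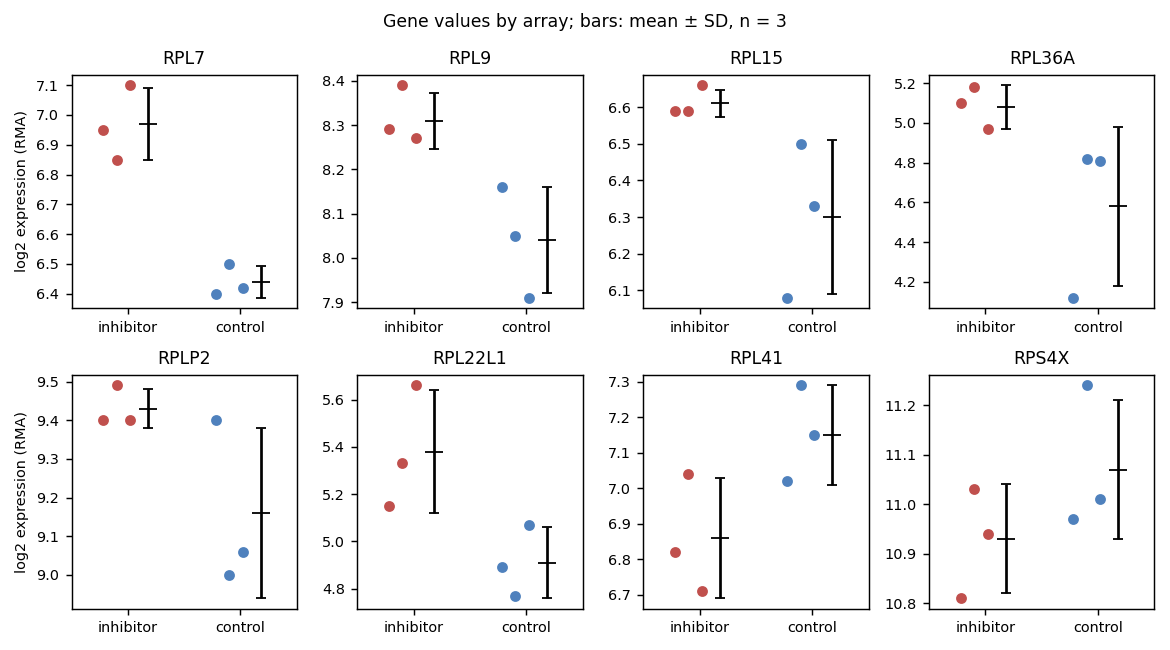
Gene values (mean log2 expression of the probe sets) on the 3 inhibitor arrays (red, left) and the 3 control arrays (blue, right) for 8 members, with the mean and SD as bars, and a separate vertical scale for each gene. The groups do not overlap for RPL7, RPL9, RPL15, RPL36A and RPL22L1, and they overlap for RPLP2, RPL41 and RPS4X.

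In RPL36A, RPL15 and RPL22 the difference was largest on a dim probe set. RPL36A, whose product lies near the exit site for transfer RNA, had 5.10, 5.18 and 4.97 in inhibitor arrays, against 4.12, 4.82 and 4.81 in control arrays. The groups did not overlap, with a difference of 0.50 (SE 0.18, unadjusted p = 0.0232, adjusted p = 0.79 in limma). Of its 4 distinct rows 2 were positive, and the row that carried the difference read 5.75, 5.62 and 5.83 in inhibitor arrays, against 3.16, 5.00 and 4.26 in control arrays. Its brightest single-gene row read 6.34, 6.63 and 6.19 in inhibitor arrays, against 6.75, 6.43 and 6.83 in control arrays, a difference of -0.28. A brighter probe set that names RPL36A together with its copy RPL36AP37 read 12.05, 12.27 and 12.26 in inhibitor arrays, against 12.19, 12.23 and 12.29 in control arrays. Its difference was -0.043 (SE 0.14), and another of the same pair gave 0.13 (SE 0.16). Leaving out control replicate 1, which was the low array, gave 0.27 for the gene.

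RPL15, mutated in some families with Diamond-Blackfan anaemia, had 6.59, 6.59 and 6.66 in inhibitor arrays, against 6.08, 6.50 and 6.33 in control arrays. The difference was 0.31 (SE 0.12, unadjusted p = 0.0259, adjusted p = 0.79 in limma), with no overlap, and 0.20 without control replicate 1. Its brighter probe set gave 0.15, at 9.93, 9.99 and 10.11 in inhibitor arrays, against 9.71, 9.92 and 9.95 in control arrays, which overlap. RPL22, a large subunit protein with a close paralogue, had 7.12, 7.23 and 7.11 in inhibitor arrays, against 6.17, 7.10 and 6.80 in control arrays. Its difference of 0.46 (SE 0.20) came with a dim row at 2.85 in control replicate 1, was 0.20 without that array and was -0.14 on its brightest row.

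**Figure D3:**
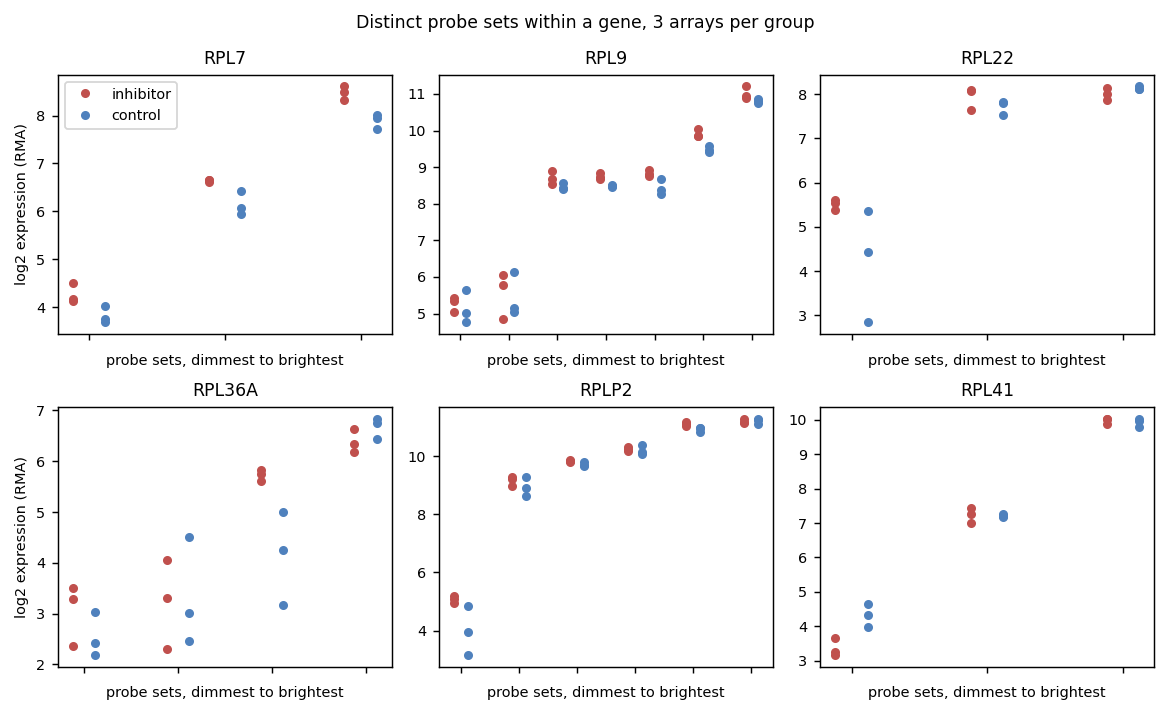
Log2 expression of each distinct probe set (dimmest to brightest from left to right) on the 3 inhibitor arrays (red) and the 3 control arrays (blue) for 6 large subunit genes. All rows of RPL7 and RPL9 have positive mean differences, while in RPL22, RPL36A, RPLP2 and RPL41 the widest gap is on 1 row with a mean below 6.

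On the lower side stood RPL41, which encodes a very short basic peptide of the large subunit, with 6.82, 7.04 and 6.71 in inhibitor arrays, against 7.02, 7.29 and 7.15 in control arrays. The groups overlapped slightly, and the difference was -0.29 (SE 0.12, unadjusted p = 0.034, adjusted p = 0.79 in limma). It came from its dimmest row, at 3.17, 3.67 and 3.26 in inhibitor arrays, against 3.99, 4.64 and 4.32 in control arrays. The other rows gave 0.02 and 0.047, so the gene's sign turned with the brightest probe set (0.047) and with the median (0.02). RPL10, which joins the large subunit late in its assembly, had -0.14 (SE 0.099) and turned to 0.057 on its brightest row. RPL32 had -0.19 (SE 0.18), with all 3 probe sets negative. RPL6 had -0.088 (SE 0.082) with no overlap of arrays, at 10.30, 10.23 and 10.33 in inhibitor arrays, against 10.38, 10.38 and 10.37 in control arrays, and its median over probe sets was 0.09.

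The acidic stalk, which recruits the elongation factors, is made of RPLP0, RPLP1 and RPLP2. RPLP2 had 9.40, 9.49 and 9.40 in inhibitor arrays, against 9.40, 9.0 and 9.06 in control arrays. Control replicate 1 was level with the lowest inhibitor arrays, and the difference was 0.27 (SE 0.12, unadjusted p = 0.0481, adjusted p = 0.79 in limma). A row at 4.95, 5.19 and 5.07 in inhibitor arrays, against 4.85, 3.17 and 3.95 in control arrays, gave 1.08, and the other 5 rows gave values from -0.0067 to 0.22. RPLP0 averaged 9.97 ± 0.099 in inhibitor and 9.85 ± 0.11 in control arrays (SD, n = 3 each), a difference of 0.12 (SE 0.099). RPLP1 averaged 11.40 ± 0.016 in inhibitor and 11.42 ± 0.083 in control arrays (SD, n = 3 each), a difference of -0.02 (SE 0.086).

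The proteins that bind 5S RNA or the ubiquitin ligase MDM2 link ribosome assembly to cell cycle control. Of 9 measured members of this list, 6 had a positive difference, and the median was 0.05. At an unadjusted p under 0.05 by limma, 0 were higher (against 2.95% of all genes) and 0 lower (against 3.16%). Without overlap, 1 was higher (11.1%, against 5.19% of all genes) and 0 lower (against 7.68%). RPL5 averaged 11.80 ± 0.052 in inhibitor and 11.73 ± 0.11 in control arrays (SD, n = 3 each), a difference of 0.074 (SE 0.092). RPL11, its partner in the 5S particle, averaged 10.49 ± 0.13 in inhibitor and 10.44 ± 0.089 in control arrays (SD, n = 3 each), a difference of 0.05 (SE 0.10). For both, the difference was smaller than its error. Of 17 measured genes linked to Diamond-Blackfan anaemia, 10 were positive with a median of 0.05. At an unadjusted p under 0.05 by limma, 1 was higher (RPL15, 5.88%, against 2.95% of all genes). Without overlap, 5 were higher (29.4%, against 5.19% of all genes).

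In the small subunit the differences ran only from -0.14 to 0.12. RPS7 had the tightest arrays, at 10.88, 10.87 and 10.86 in inhibitor arrays, against 10.77, 10.80 and 10.79 in control arrays. Its groups did not overlap, yet the difference was 0.082 (SE 0.080, adjusted p = 0.86 in limma), because the moderated error draws on the spread of all genes. RPS19, the gene most often mutated in Diamond-Blackfan anaemia, had 10.21, 10.12 and 10.14 in inhibitor arrays, against 10.05, 10.06 and 10.07 in control arrays. Its difference of 0.094 (SE 0.082) was positive on only 2 of 6 probe sets, and it was -0.077 on the brightest. RPS15A had 0.12 (SE 0.087) and RPS3, at the entry of the message channel, 0.068 (SE 0.087).

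RPS4X, the X-linked form of that protein, had the lowest difference of the small subunit, at 10.81, 11.03 and 10.94 in inhibitor arrays, against 10.97, 11.24 and 11.01 in control arrays. Its groups overlapped, and all 8 probe sets were negative, with -0.14 (SE 0.11, adjusted p = 0.82 in limma). The rows ran from -0.69 to -0.013, and the difference was -0.04 on the brightest and -0.067 with the median of probe sets. RPS28 had -0.079 (SE 0.092) with all 9 probe sets negative, RPS24 -0.068 (SE 0.092) and RPS29 -0.062 (SE 0.093). RPS6, the substrate of the S6 kinases, averaged 10.72 ± 0.062 in inhibitor and 10.66 ± 0.099 in control arrays (SD, n = 3 each), a difference of 0.059 (SE 0.092). RPS27 had 0.097 (SE 0.15). RPSA, also known as the laminin receptor, was read by 1 dim probe set and was the least certain, at 4.18, 4.81 and 4.51 in inhibitor arrays, against 5.11, 3.57 and 5.00 in control arrays. A bright probe set that names RPSA together with its copy RPSAP15 read 11.43, 11.35 and 11.37 in inhibitor arrays, against 11.57, 11.23 and 11.27 in control arrays, a difference of 0.027 (SE 0.15). Another of the same pair read 8.90, 9.02 and 8.92 in inhibitor arrays, against 9.32, 9.14 and 9.04 in control arrays, without overlap and with a difference of -0.22 (SE 0.14). The other shared rows of RPSA were dimmer, with -0.11 (SE 0.25) beside RPSAP15 and -0.27 (SE 0.31) beside SNORA62.

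RPS18 shows how repeated rows enter a gene value. Its 21 probe sets held 7 distinct rows, each present 3 times. The gene difference was 0.035 (SE 0.083), but the median of its probe sets fell on 1 row at 6.28, 5.80 and 5.56 in inhibitor arrays, against 6.92, 7.19 and 6.65 in control arrays, and gave -1.04. Its brightest row, at 12.80, 12.60 and 12.73 in inhibitor arrays, against 12.80, 12.72 and 12.72 in control arrays, gave -0.037. In all, 22 of the 450 member probe sets (4.89%) repeated another row of the same gene, against 1.22% of all single-gene probe sets. The repeats lay in 5 genes: RPS18, RPL9, RPL36A, RPS28 and RPL7.

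Single probe sets were fitted over the whole table as well. Of the 450 member probe sets, 0 passed the adjusted threshold (0% of all were called), 242 were positive (53.8%, against 49.7% of all), 20 were higher at an unadjusted p under 0.05 (4.44%, against 3.11%) and 7 lower (1.56%, against 3.09%). With repeats counted once these were 14 higher of 428 (3.27%, near the 3.12% of all distinct probe sets) and 5 lower (1.17%, against 3.09%). Distinct subunit probe sets with a mean level of 9 or more numbered 196, of which 98 were positive, with a median of 0.0033, the same as over all probe sets of that brightness (0.0033). Among these bright rows, 62 of 111 of the large subunit (55.9%) and 36 of 85 of the small subunit (42.4%) were positive, with medians of 0.02 and -0.013. Below a level of 6, 25 of 42 large subunit rows were positive (59.5%), with a median of 0.13, and 8 of 18 small subunit rows (44.4%), with a median of -0.03. The median SD within groups was 0.397 for the dim subunit rows and 0.0837 for the bright ones, so the dim rows were the less certain. The part of brightness in the gene values was not tested.

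**Figure D4:**
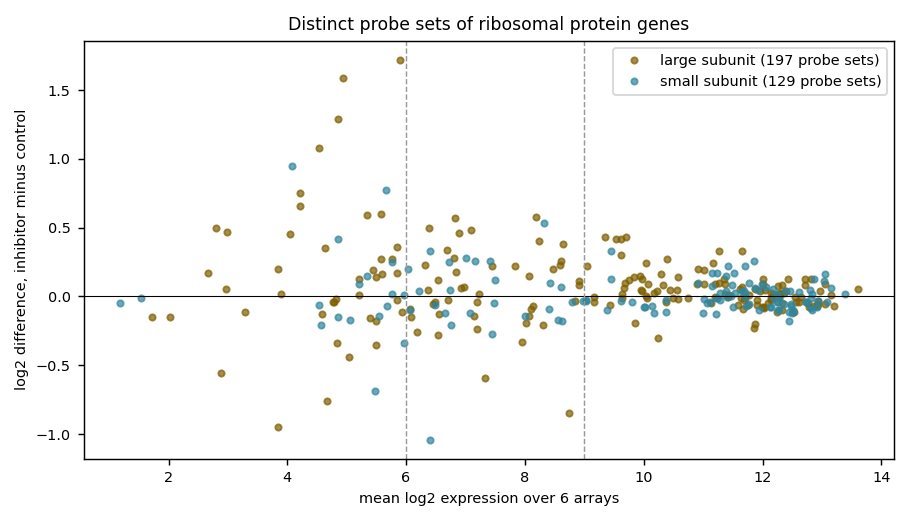
Log2 difference of inhibitor minus control against the mean log2 expression over the 6 arrays, 1 point for each distinct probe set of the large and small subunit genes, with dashed lines at levels of 6 and 9. Differences spread from -1.04 to 1.72 below a level of 9 and from -0.30 to 0.43 above it.

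Paralogues replace a canonical protein in some tissues or ribosomes. RPL22L1, which can take the place of RPL22, had 5.15, 5.33 and 5.66 in inhibitor arrays, against 4.89, 4.77 and 5.07 in control arrays. The groups did not overlap, and the difference was 0.47 (SE 0.14, 1.38-fold, unadjusted p = 0.00974, adjusted p = 0.79 in limma), with all 5 probe sets positive. Its brightest probe set read 9.05, 9.34 and 9.43 in inhibitor arrays, against 8.72, 8.72 and 8.97 in control arrays, also 0.47 and without overlap. The gene's difference stayed between 0.33 and 0.58 without any 1 array.

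The other 7 paralogues lay between -0.11 and 0.15 and all their groups overlapped. They were RPL36AL at 0.08 (SE 0.088), RPL7L1, a factor of large subunit assembly related to RPL7, at -0.069 (SE 0.092), RPL26L1 at 0.033 (SE 0.14) and RPS27L at -0.093 (SE 0.15). The testis forms RPL10L and RPL39L and the muscle form RPL3L were dim, with inhibitor means of 3.83, 3.21 and 4.91 and control means of 3.94, 3.06 and 4.95. Over all 8 paralogues, 4 were positive and the median was -0.0037, but the direction depended on the probe sets used. With the brightest ones 8 of 8 were positive with a median of 0.16, and without the dimmest 30% 6 were, with a median of 0.11. The median over probe sets gave 5 positive and 0.043, median centring gave 0.0028, and leaving out any 1 array gave medians from -0.028 to 0.041.

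Of the 26 likely pseudogenes, 21 were positive (80.8%, against 50.5% of all genes), with a median of 0.079 and a range of -0.25 to 0.27. Most were dim, with a mean level under 6 for 17 of them. At an unadjusted p under 0.05, 3 were higher (11.5%, against 2.95% of all genes) and 1 lower (3.85%, against 3.16%), each read by a single probe set. RPL13AP6 had 6.19, 6.41 and 6.30 in inhibitor arrays, against 5.97, 6.08 and 6.04 in control arrays, without overlap (0.27, SE 0.093). RPL37AP8 had 0.24 (SE 0.10) and RPL23AP71 0.26 (SE 0.11). RPL13P5 had 5.88, 6.0 and 6.02 in inhibitor arrays, against 6.16, 6.36 and 6.14 in control arrays, without overlap (-0.25, SE 0.098). All 4 had an adjusted p of 0.79 in limma. In the limma fit over single probe sets, their rows had unadjusted p of 0.0945 (RPL13AP6), 0.142 (RPL37AP8), 0.143 (RPL23AP71) and 0.121 (RPL13P5). None of the 4 was thus under 0.05 in that fit, where the errors were larger (SE 0.14 for RPL13AP6). Pseudogene probes can also read the parent message, and which copy they read was not tested.

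Another 58 probe sets named a member beside another gene, mostly a pseudogene copy, a paralogue or a small nucleolar RNA in an intron. In a fit over all 234479 named probe sets 0 of these passed, and differences ran from -0.31 to 0.34. At an unadjusted p under 0.05 by limma there were 0 of the 58. Among single-gene probe sets, in their own fit, 3.11% were higher and 3.09% lower at that level. The shared probe sets hold the only reading used here for RPL24 (0.027, SE 0.13) and RPL21 (0.06, SE 0.15). FAU, whose product yields the small subunit protein eS30 and which carries another name, averaged 8.06 ± 0.16 in inhibitor and 8.13 ± 0.15 in control arrays (SD, n = 3 each), a difference of -0.066 (SE 0.12). RACK1 was not analysed here.

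Read array by array, the median over the large subunit genes was slightly higher on the inhibitor arrays. The median deviation of the 43 genes from their own means was 0.034, 0.062 and 0.027 on inhibitor arrays, against -0.019, 0.022 and -0.052 on control arrays. The lowest inhibitor array thus stood 0.027 against 0.022 for the highest control array. For the 26 small subunit genes it was -0.015, 0.038 and -0.011 on inhibitor arrays, against 0.019, 0.013 and -0.028 on control arrays, which overlap. For the pseudogenes it was 0.015, 0.086 and 0.0012 on inhibitor arrays, against -0.021, -0.0054 and -0.033 on control arrays. Inhibitor replicate 2 was the highest array for large subunit, small subunit and pseudogenes. The genes of both subunits varied together only weakly within groups, with a mean pairwise correlation of 0.0596 over 6 arrays, against 0.00672 for all genes and 0.126 for the 1866 brightest genes.

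**Figure D5:**
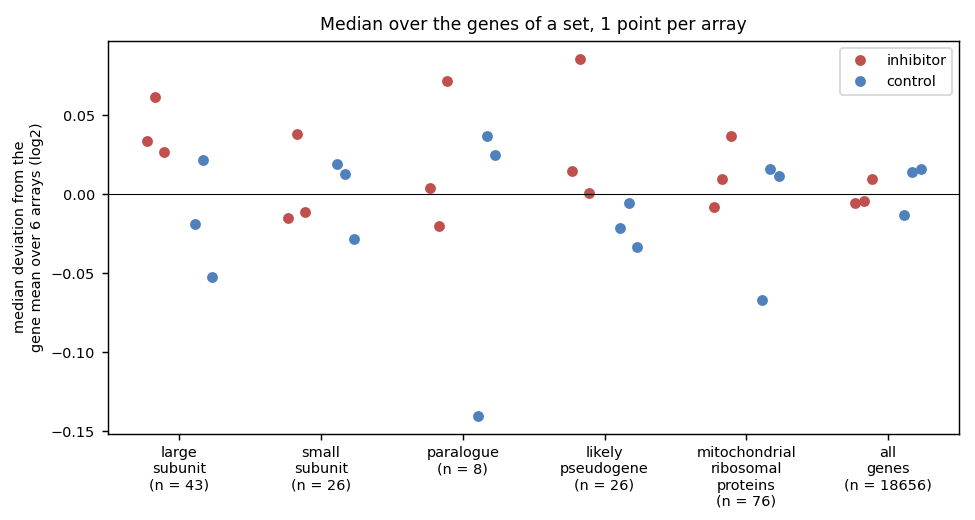
Median deviation of the genes of a set from their means over the 6 arrays, 1 point for each inhibitor array (red, left) and control array (blue, right). The inhibitor points lie above the control points for the large subunit and the pseudogenes and overlap them in the other sets shown.

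Other genes of translation gave no call either, with 0 passing the adjusted threshold in each list. The mitochondrial ribosomal proteins, which serve a separate ribosome, had 49 of 76 positive (64.5%) with a median of 0.041. At an unadjusted p under 0.05 by limma, 1 was higher (1.32%, against 2.95% of all genes) and 0 lower (against 3.16%). Without overlap, 5 were higher (6.58%, near the 5.19% of all genes) and 2 lower (2.63%, against 7.68%). Their share of positive genes was close to that of the cytosolic members (63.2%). MRPL11 had 0.33 (SE 0.13) and MRPL42 0.20 (SE 0.11) on the positive side, with MRPL34 at -0.20 (SE 0.14) and MRPL46 at -0.12 (SE 0.092) on the other. For MRPL11 the brightest probe set gave 0.027 and the median of probe sets 0.46.

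Factors whose messages carry the same oligopyrimidine start had 9 of 15 positive and a median of 0.045. At an unadjusted p under 0.05 by limma, 2 were higher (13.3%, against 2.95% of all genes) and 0 lower (against 3.16%). The higher genes were the subunits of initiation factor 3 EIF3F at 0.28 (SE 0.11), whose median over probe sets was -0.018, and EIF3E at 0.25 (SE 0.11), with 8 of 9 probe sets positive. The nucleolar protein NPM1 had -0.16 (SE 0.12), although 3 of its 5 probe sets were positive. Its brightest probe set gave 0.023, its median over probe sets 0.083, and the mean without the dimmest 30% 0.058. HNRNPA1 had -0.049 (SE 0.089) and 0.13 on its brightest probe set. Its median over probe sets was -0.46, and it had -0.073 without the dimmest 30%. Other initiation factors had 17 of 24 positive and a median of 0.054. At an unadjusted p under 0.05 by limma, 1 was higher (4.17%, against 2.95% of all genes) and 0 lower (against 3.16%). EIF3C had 0.45 (SE 0.12) with 8 probe sets holding 4 distinct rows, of which the brightest gave -0.06, and EIF1AX 0.17 (SE 0.13). EIF6, which keeps the subunits apart until the large one is mature, had -0.27 (SE 0.13), at 7.69, 7.85 and 7.84 in inhibitor arrays, against 8.36, 7.89 and 7.94 in control arrays, and -0.12 without control replicate 1. Its difference was -0.042 with the median of probe sets and -0.017 on the brightest. EIF4G1, the scaffold of the cap-binding complex, had -0.10 (SE 0.091).

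Factors of ribosome biogenesis lay about zero, with 16 of 40 positive and a median of -0.0094. At an unadjusted p under 0.05 by limma, 0 were higher (against 2.95% of all genes) and 1 lower (2.5%, near 3.16%). The lower gene was NOL6, of the small subunit processome, at -0.26 (SE 0.10, 23 of 29 probe sets negative). It had -0.13 with the median of probe sets and 0.12 on the brightest. SBDS, which helps to release EIF6 from the large subunit, had -0.27 (SE 0.14), and the box C/D particle protein NOP58 0.16 (SE 0.10). The RNA polymerase I subunit POLR1B had 0.20 (SE 0.11), but 0.017 both with the median of probe sets and with the brightest. Chaperones of single ribosomal proteins had 4 of 10 positive and a median of -0.017. At an unadjusted p under 0.05 by limma, 0 were higher (against 2.95% of all genes) and 0 lower (against 3.16%). GRWD1, which escorts RPL3, had -0.16 (SE 0.093), AAMP -0.093 (SE 0.085), BCCIP 0.063 (SE 0.10) and PDCD2L 0.048 (SE 0.095).

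Genes that link growth control and ribosomal proteins had 5 of 17 positive and a median of -0.046. At an unadjusted p under 0.05 by limma, 0 were higher (against 2.95% of all genes) and 2 lower (11.8%, against 3.16%). Without overlap, 6 were lower (35.3%, against 7.68%) and 2 higher (11.8%, against 5.19%). MXI1, which competes with MYC for its partner, had 6.91, 6.84 and 7.13 in inhibitor arrays, against 7.27, 7.32 and 7.28 in control arrays. That is a difference of -0.33 (SE 0.10, adjusted p = 0.79 in limma), with 10 of 13 probe sets negative and no overlap. MAX, the partner itself, had 7.05, 6.96 and 7.05 in inhibitor arrays, against 7.20, 7.28 and 7.23 in control arrays, a difference of -0.22 (SE 0.084, adjusted p = 0.79 in limma) without overlap. The MAX difference shrank to -0.05 with the median of probe sets, -0.11 with the brightest and -0.096 without the dimmest 30%. The ubiquitin ligase MDM2 had 0.23 (SE 0.11), with 0.22 on its brightest probe set but 0.0017 with the median of probe sets. GABPA, an ETS factor, had 0.24 (SE 0.19), with control replicate 1 at 8.05 below the other arrays and 0.0033 without it.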

How the data were processed

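Signals of 257430 probe sets on 6 arrays were used as deposited, as log2 values made by the authors with RMA in Affymetrix Expression Console, with Transcriptome Analysis Console also named, per the submitters' processing notes; versions and settings are not given in the sources used here. RMA equalises the arrays' distributions, so a shift common to most messages cannot be seen. From these values, single-gene probe sets were averaged per gene after symbols were updated to RefSeq (GRCh38.p14), and the groups were compared with limma 3.58.1 (R 4.3.3), lmFit and eBayes, two-sided, without a replicate block. The fit was tested on simulated data. Dim genes were not filtered out.

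Members and gene lists were chosen with earlier results of these data known. Named genes were members with an unadjusted p under 0.05, the 4 with the highest and the 4 with the lowest moderated t of each subunit, stalk proteins, paralogues, RPL5, RPL11, RPS6, RPS19, RPSA, RPL22 and RPS27, the components FAU and RACK1 and another not reported here, members whose median of probe sets had the other sign and a size over 0.3, and up to 2 each way per other list. RPL30, the arrays' markers and the probe set rows were shown beyond that rule.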

Additional observations from a re-analysis of the deposited data

How the results depend on the processing

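Under the alternatives 0 ribosomal protein genes and 0 of their probe sets were called by limma, with 4 to 13 member genes at an unadjusted p under 0.05. The main setting had 11 of 106 members and 1141 of 18656 genes at that level. Without inhibitor replicate 2 there were 4 members and 856 genes, and with the brightest probe sets 5 and 1163. The median of probe sets gave 7 members and 1097 genes, and limma's trend and robust options gave 13 and 1237. Over all genes 0 were called, except that leaving out arrays gave 0 to 1 genes, the 1 without control replicate 3, and 856 to 1271 genes had an unadjusted p under 0.05. The replicate block gave 0 calls over all genes (1161 at an unadjusted p under 0.05), 0 members and 0 of their probe sets, with the same median of 0.047, so it changed no call. Arrays of the same number share only that number here: their deviations from group means correlated at -0.032, -0.040 and 0.169, and the highest value, 0.208, was between inhibitor replicate 2 and control replicate 1. The median over members, 0.047, was 0.02 over their single probe sets, 0.034 without likely pseudogenes, 0.03 with quantile normalization, 0.04 with the brightest probe sets and 0.033 to 0.059 without any 1 array. Counting identical probe sets once was chosen after seeing the data and left the median at 0.047.

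Of 38 named members, 18 reversed sign under no setting run, among them RPL11, which came to 0 without control replicate 3. With the brightest probe set the sign turned for RPL10 (0.057), RPL10L (0.26), RPL22 (-0.14), RPL36A (-0.28), RPL3L (0.057), RPL41 (0.047), RPL5 (-0.067), RPL7L1 (0.02), RPLP2 (-0.0067), RPS18 (-0.037), RPS19 (-0.077), RPS27 (-0.18), RPS27L (0.11), RPS29 (0.093) and RPS3 (-0.07). With the median of probe sets it turned for RPL39L (-0.027), RPL41 (0.02), RPL5 (-0.0017), RPL6 (0.09), RPL7L1 (0.08), RPS18 (-1.04), RPS19 (-0.047) and RPS27L (0.17). Without the dimmest 30% of probe sets it turned for RPL10L (0.10), RPL41 (0.033), RPS18 (-0.13) and RPS27L (0.21). Without any 1 array, RPL26L1 ranged from -0.11 to 0.17, RPL3L from -0.14 to 0.076, RPLP1 from -0.06 to 0.022, RPS27 from -0.014 to 0.26, RPS27L from -0.21 to 0.022 and RPSA from -0.56 to 0.21. The cause was not tested. Signal over background was not available, so how far dim probe sets report expression is not known.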
